A study of Mus musculus with 4 samples.

Results

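Small nucleolar RNAs (snoRNAs) and small Cajal body RNAs (scaRNAs) are short non-coding RNAs that guide the chemical modification of other RNAs. Genes were taken as members where a probe set carried exactly 1 gene symbol and that symbol began with Snora, Snord or Scarna, and where a gene had several, its brightest on average was kept. This gave 78 genes of 22180 measured: 26 H/ACA genes (Snora), 47 C/D genes (Snord) and 5 scaRNA genes (Scarna). A further 46 probe sets named a snoRNA together with other symbols and were set aside.

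RNA of E14tg2a, a mouse embryonic stem cell line grown with serum and LIF, was hybridised to 4 Affymetrix GeneAtlas arrays, 1 per group. The cells were wild type (WT) or Ctbp1/2 double knockout (DKO), lacking a pair of transcriptional corepressors, and were labelled d0 or d2. The series title names PRDM14 overexpression, but its start, its means and whether each genotype is 1 clone are not in the labels. With no replicates, a difference between single arrays has no error and no test.

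C/D RNAs bind fibrillarin and guide methylation of ribose, and H/ACA RNAs bind dyskerin and guide the conversion of uridine to pseudouridine, mostly on ribosomal RNA. A few of them instead help to cleave the ribosomal precursor, and scaRNAs guide the same modifications on spliceosomal RNAs in Cajal bodies. Most mammalian snoRNAs are cut out of introns of a host gene after splicing, so a probe set on a snoRNA cannot tell the mature RNA from unspliced host RNA. The labels name a PureLink RNA Mini Kit and do not say how well RNAs this short were kept.

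The deposited values are taken as log2, so that a difference of 1 is called 2-fold, and most lie between 0 and 1. In what follows a value is a level on this scale, and the 40th percentile of all values was 0.30. The labelled cell type could not be read from the markers, since the means of 10 embryonic stem cell markers (0.19 to 0.90) and of 8 fibroblast markers (0.20 to 1.19) covered a like range. Ctbp1 was 0.63 in WT d0, 0.32 in WT d2, 0.56 in DKO d0 and 0.42 in DKO d2, and Ctbp2 was 0.55, 0.46, 0.55 and 0.42 in the same order. Neither gene was lower on both DKO arrays than on both WT arrays, so WT and DKO are used here as the labels' names. The DKO d2 array stood apart from the others: its Pearson correlation with each was 0.727 over all probe sets, against 0.827 to 0.832 among the other 3 arrays.

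The snoRNA genes fell into a dim majority and a small bright group. The median of the mean level was 0.31 for H/ACA genes, 0.30 for C/D genes and 0.59 for scaRNA genes, against 0.39 over all genes. Even so, 18 of the 78 genes (23.08%) had a mean above 1, where 1075 of all genes (4.85%) did, and 9 (11.54%) had a mean above 2, where 221 of all genes (1.0%) did. H/ACA and C/D genes had like shares above 1, with 7 of 26 (26.92%) and 11 of 47 (23.4%), and 2 and 7 of them were above 2. No scaRNA gene had a mean above 1. On 13 genes, 8 C/D and 5 H/ACA, all 4 arrays read above 1, and on 9 genes all 4 arrays read below the 40th percentile. Probe affinity adds to the level of each probe set, so these shares describe array readings and not molecule numbers.

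**Figure D1:**
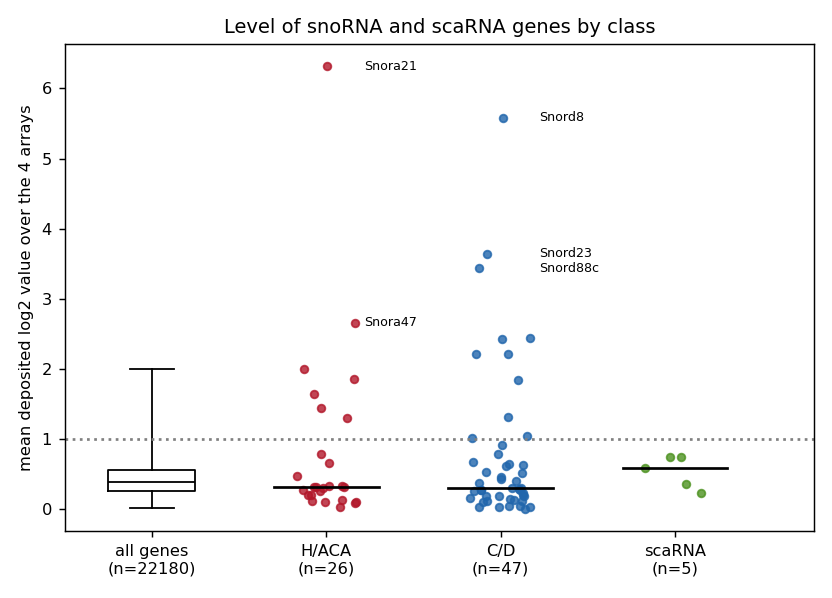
Mean deposited log2 value over the 4 arrays (vertical axis) for all 22180 genes (box from the 25th to the 75th percentile, whiskers at the 1st and 99th percentile) and for each H/ACA, C/D and scaRNA gene (points, with the class median as a black bar). The class medians lie near 0.3 to 0.6, and 18 points, none of them a scaRNA gene, lie above the dotted line at 1.

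Snora21, an H/ACA RNA within Rpl23, a gene for a ribosomal protein, was bright on every array, with 6.34 in WT d0, 6.54 in WT d2, 6.64 in DKO d0 and 5.76 in DKO d2. On the deposited values, DKO d2 was the lowest by more than the other 3 arrays spread among themselves. This depended on the scaling. The d2 difference averaged over the genotypes was -0.35 as deposited and -0.062 after quantile normalization. The genotype difference averaged over the days was -0.24 as deposited and 0.080 after it, so DKO d2 was then not below WT d0. Snora47, within Zbed3, read 2.36 in WT d0, 2.62 in WT d2, 2.72 in DKO d0 and 2.93 in DKO d2. The other 3 arrays were thus all above WT d0.

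Snora41, within the translation elongation factor gene Eef1b2, read 1.70 in WT d0, 1.87 in WT d2, 1.73 in DKO d0 and 2.13 in DKO d2. Snora35 lies in Htr2c, the gene of a serotonin receptor, and is known from brain. It read 1.55 in WT d0, 1.73 in WT d2, 1.73 in DKO d0 and 1.58 in DKO d2, and the probe set of Htr2c itself read -0.03, 0.09, -0.09 and -0.09 in that order. Snora35 was thus among the steadiest of the bright genes, with a range of 0.18, while the receptor's probe set was near 0 on all 4 arrays.

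Among C/D genes, Snord8, which lies within Chd8, a chromatin remodeller gene, and the predicted gene Gm26590, read 5.38 in WT d0, 6.07 in WT d2, 6.20 in DKO d0 and 4.69 in DKO d2. Snord23, within Nop53, read 3.14 in WT d0, 3.72 in WT d2, 3.93 in DKO d0 and 3.78 in DKO d2. Snord8 was highest in DKO d0 and lowest in DKO d2, whereas Snord23 was lowest in WT d0 and close to one level on the remaining arrays.

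Snord88c, within 2410002F23Rik, read 2.81 in WT d0, 3.44 in WT d2, 3.19 in DKO d0 and 4.31 in DKO d2. Snord66, within the translation initiation factor gene Eif4g1, read 1.77 in WT d0, 1.42 in WT d2, 2.22 in DKO d0 and 3.44 in DKO d2. On both, DKO d2 was the highest array. Snord82, within the nucleolin gene Ncl, was steady, with 2.53 in WT d0, 2.44 in WT d2, 2.31 in DKO d0 and 2.44 in DKO d2. Of the other C/D genes above 1, Snord99, Snord55, Snord65 and Snord11 had means from 1.01 to 1.84.

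**Figure D2:**
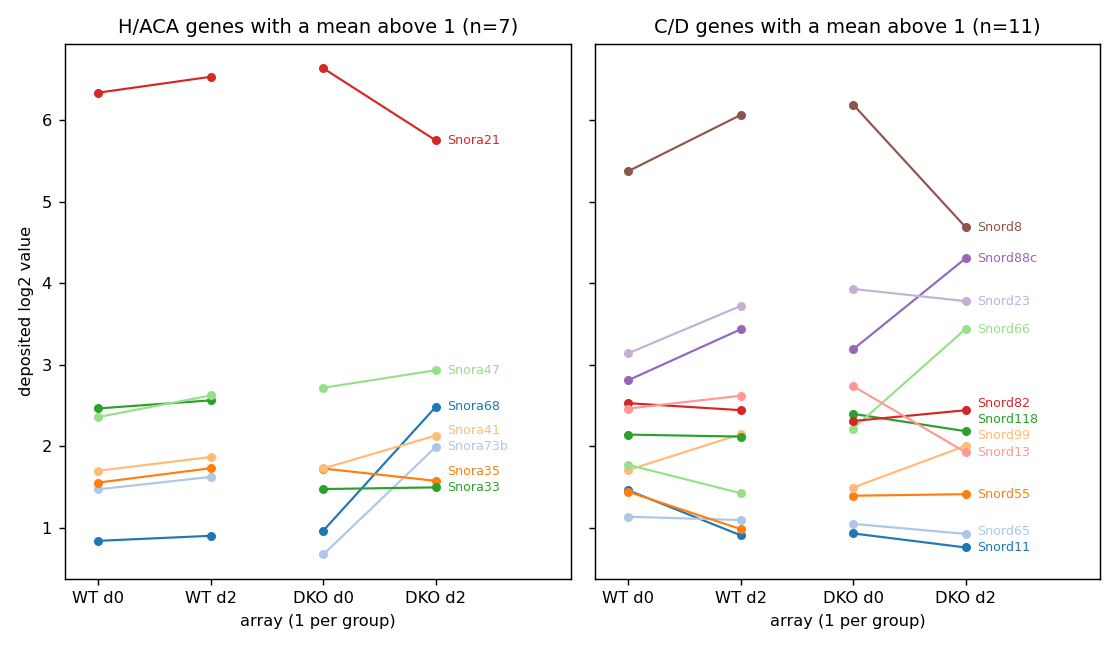
Deposited log2 value (vertical axis) on each of the 4 arrays (horizontal axis, 1 per group) for the 7 H/ACA and the 11 C/D genes with a mean above 1; each line joins d0 and d2 of 1 genotype. Snora21 lies between 5.76 and 6.64 and Snord8 between 4.69 and 6.20, and both are lowest at DKO d2.

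A list of 10 snoRNA genes that act in cleavage or folding of the ribosomal precursor, rather than as ordinary modification guides, had 5 measured members. Snord118 (U8), needed for the RNAs of the large ribosomal subunit, read 2.14 in WT d0, 2.12 in WT d2, 2.40 in DKO d0 and 2.19 in DKO d2. Snord13 (U13), which acts on the small subunit RNA, read 2.46 in WT d0, 2.62 in WT d2, 2.74 in DKO d0 and 1.93 in DKO d2. RefSeq places neither within another gene. Snord118 hardly varied, and Snord13 was lowest in DKO d2, at -0.81 from DKO d0.

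Snora73b, a copy of U17 from the non-coding host Snhg3, read 1.47 in WT d0, 1.62 in WT d2, 0.67 in DKO d0 and 1.99 in DKO d2. Snora73a, the other copy in the same host, read 0.38, 0.68, 0.55 and 1.03 in that order. Both were higher at d2 than at d0 in each genotype. The sequences of these copies were not compared, so how the signal of the RNA splits between their probe sets is uncertain. Snord22 (U22), from Snhg1, had values between 0.46 and 0.72.

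The 5 scaRNA genes had means between 0.22 and 0.74. Scarna2, which guides methylation of the U2 spliceosomal RNA and is not within another gene, read 0.71 in WT d0, 0.70 in WT d2, 0.76 in DKO d0 and 0.79 in DKO d2, a range of 0.09. Scarna10, within Ncapd2, a condensin subunit gene, read 0.73, 0.72, 0.87 and 0.65 in that order. Both were steady, while Scarna17 lay between -0.06 in DKO d0 and 0.60 in WT d0. None of the 5 differed 2-fold in any comparison.

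From d0 to d2 in WT cells, 0 of 78 genes differed by 2-fold or more, beside 0.32% of all genes. The largest difference was that of Snord35b, a C/D gene, which read 0.30 in WT d0 and 1.04 in WT d2, and then 1.11 in DKO d0 and 0.68 in DKO d2. WT d0 was thus the array that stood low. The H/ACA genes leaned upward: their median difference was 0.12, and 19 of 26 were above 0. For C/D genes the median was -0.027, with 22 of 47 above 0, and for all genes it was 0.0070, with 51.2% above 0. Of the bright genes, above a mean of 1, WT d2 was the higher array for all 7 H/ACA genes, by 0.06 to 0.26, and for 5 of 11 C/D genes. Among all genes that bright, 51.0% were higher in WT d2. Over the 26 H/ACA genes, WT d0 was the lowest of the 4 arrays for 10 and the highest for 1. WT d2 was the lowest for 1 and the highest for 7, and DKO d0 was the lowest for 9. Over all 22180 genes, WT d0 was the lowest for 6006 and the highest for 4648. There WT d2 was the lowest for 5618 and the highest for 5130, and DKO d0 was the lowest for 5675.

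In DKO cells, 5 of 78 genes differed by 2-fold or more between d2 and d0, beside 0.888% of all genes. Snora68, an H/ACA gene, read 0.84 in WT d0, 0.90 in WT d2, 0.96 in DKO d0 and 2.48 in DKO d2. It was near one level on 3 arrays and higher in DKO d2, by 1.52 from DKO d0. Snora73b, Snord66 and Snord88c were higher in DKO d2 by 1.32, 1.22 and 1.12, and Snord8 was lower, with a difference of -1.51. All 5 had means above 1. Among all genes that bright, 7.16% differed 2-fold, against 5 of these 18, and among genes with a mean above 2 it was 17.6%, against 3 of 9. Past 2-fold were 2 of 26 H/ACA and 3 of 47 C/D genes, and the class medians were 0.048 and 0.087, beside 0.035 for all genes. Over the members with a mean above 1 alone the order of the medians turned, to 0.22 for H/ACA and -0.12 for C/D genes.

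Between the genotypes at d0, 0 of 78 genes differed 2-fold, beside 0.32% of all genes. Snora33, just inside that limit at -0.99, lies in Rps12, a ribosomal protein gene. It read 2.46 in WT d0, 2.56 in WT d2, 1.47 in DKO d0 and 1.496 in DKO d2. Both DKO arrays were below both WT arrays, by 0.97 at the nearest. Of all genes, 0.252% had genotypes apart by 0.5 or more, and of the 78 only Snora33 did. A second probe set named Snora33 did not show this, with 0.40 in WT d0, 0.13 in WT d2, 0.28 in DKO d0 and 0.57 in DKO d2. Neither did the host Rps12, with 1.02, 1.30, 1.22 and 0.62 in that order. Median differences at d0 were 0.060 for H/ACA, 0.088 for C/D and 0.0073 for all genes. Of the 9 members with a mean above 2, 8 were higher in DKO d0 than in WT d0, by 0.25 to 0.82, with Snord82 the exception at -0.22. Of all 221 genes that bright, 47.5% were higher in DKO d0, and of the 18 members with a mean above 1, 11 (61.1%) were.

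At d2, 5 of 78 genes differed 2-fold between DKO and WT, beside 0.87% of all genes. Snord66 was higher in DKO by 2.02, Snora68 by 1.58 and Snord88a by 1.07, and Snora33 and Snord8 were lower, at -1.07 and -1.38. Snora33 was past 2-fold by its brighter probe set alone (-0.31 for the mean of both), and Snord8 was at -0.97 after quantile normalization. Snord88a, which lies within the same host as Snord88c, read 0.32 in WT d0, -0.04 in WT d2, 0.18 in DKO d0 and 1.03 in DKO d2. Of these 5 genes, 4 had a mean above 1, of 18 so bright, where 7.07% of all genes that bright differed. H/ACA genes had a median difference of -0.060 with 12 of 26 above 0, and C/D genes one of 0.078 with 29 of 47 above 0, beside 0.038 for all genes. Here too the order turned over members with a mean above 1, to 0.26 for H/ACA and -0.0011 for C/D genes.

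**Figure D3:**
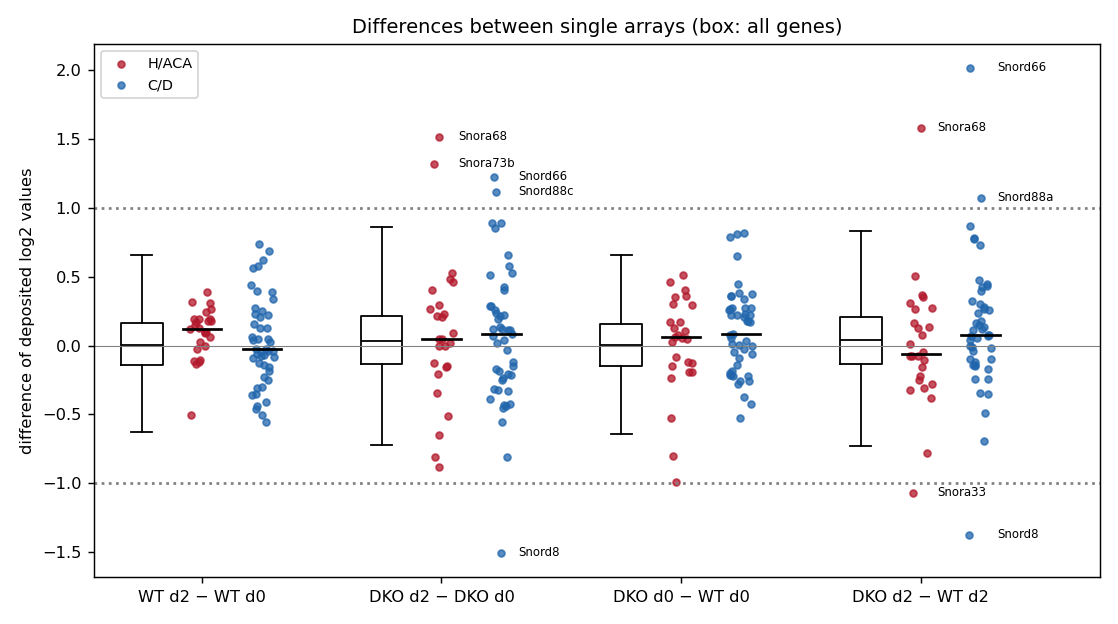
Difference of deposited log2 values (vertical axis) in the 4 comparisons of single arrays, for all 22180 genes (box, whiskers at the 1st and 99th percentile) and each H/ACA and C/D gene (points, class median as a black bar). Dotted lines mark 2-fold; named points are those past it, 5 in each comparison that uses the DKO d2 array and 0 in each of the others.

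The comparisons of DKO d2 with DKO d0 and with WT d2 share the DKO d2 array. That array was alone, by 0.5 or more from each of the other 3 while those lay within 0.5 of one another, for 8.97% of members and for 2.09% of all genes. For the other arrays this share was 0.0% to 2.56% of members and 0.47% to 0.63% of all genes. It was not counted among genes of like level, and a mean above 1 was commoner among members (23.08%) than among all genes (4.85%). Across the 78 genes the Pearson correlation of DKO d2 with the other arrays was 0.911 to 0.920, against 0.962 to 0.974 among the other 3. Its part in the 2-fold differences was not tested.

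The d2 differences of the genotypes did not go together over the members. Across the 78 genes, which share the arrays of each genotype, the Pearson correlation of the WT difference with the DKO difference was -0.084 and the Spearman correlation -0.047, and across all 22180 genes they were 0.030 and 0.024. The d2 difference of DKO minus that of WT was 2-fold or more for 8 of 78 genes, beside 2.21% of all genes. It was largest for Snord8, at -2.20, from 0.69 in WT and -1.51 in DKO. Among all genes with a mean above 1, 12.2% passed 2-fold in this measure, against 5 of 18 members. Among those with a mean above 2, 24.4% did, against 3 of 9 members.

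**Figure D4:**
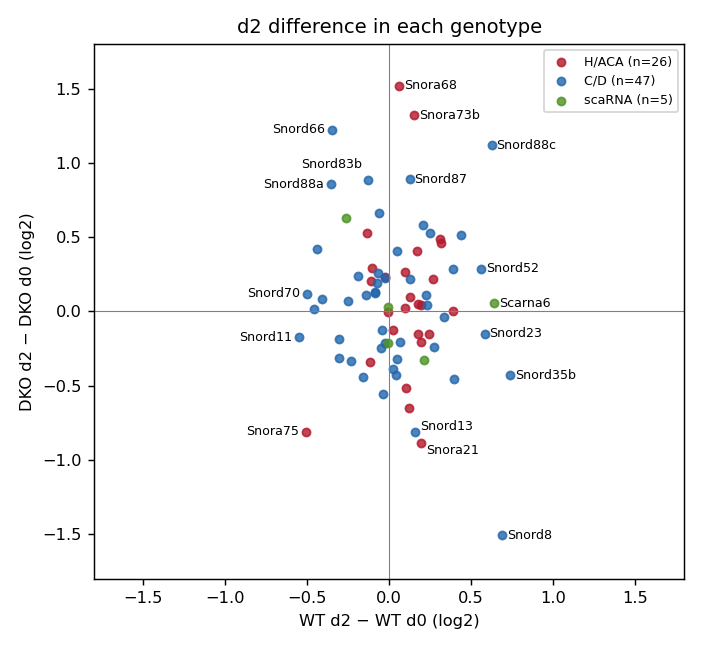
Difference between d2 and d0 in DKO cells (vertical axis, log2) against that in WT cells (horizontal axis, log2) for each H/ACA, C/D and scaRNA gene. The points show no common slope (Pearson correlation -0.084, 78 genes); they spread wider along the DKO axis, from -1.51 to 1.52, than along the WT axis, from -0.55 to 0.74.

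The differences shared by both genotypes, or by both days, were tested with limma, whose error here has 1 residual degree of freedom of its own. Of the 69 members past the filter on dim probe sets, 0 passed an adjusted p of 0.05 for the shared d2 difference or the shared genotype difference, as did 0 of 20015 genes (0.0%). At an unadjusted p under 0.05, limma had 4 members for the d2 term, where 1031 of all genes (5.15%) were, and 4 for the genotype term, where 984 (4.92%) were. These shares of members are near those of all genes. Values of the genotypes did not overlap for 24 of 78 members (30.8%), beside 33.2% of all genes, and those of the days for 20 (25.6%), beside 33.7%.

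For the d2 term the lowest limma p was that of Snora75, within Ncl. Snora75 read 1.08 in WT d0, 0.58 in WT d2, 1.14 in DKO d0 and 0.33 in DKO d2. Both d2 arrays were below both d0 arrays, a shared difference of -0.66 ± 0.19 (SE, limma adjusted p = 0.923). Of all genes, 0.248% had days apart by 0.5 or more. Snord87, Snora69 and Snora73a followed with 0.51, 0.39 and 0.40. Their WT and DKO d2 differences were 0.12 and 0.89 for Snord87, 0.32 and 0.46 for Snora69, and 0.31 and 0.49 for Snora73a. Only the DKO d2 value took Snord87 past the filter on dim probe sets, and only the WT d2 value took Snora69 past it. For the genotype term the lowest was Snora33, at -1.03 ± 0.32 (SE, limma adjusted p = 0.943), followed by Snord66 at 1.23, Snora69 at -0.45 and Snora68 at 0.85. With the mean of its probe sets, Snora33 was at -0.43 and no longer had the lowest p. The genotype difference of Snord66 was 0.44 at d0 and 2.02 at d2, and that of Snora68 was 0.125 and 1.58. For Snora69 it was -0.53 and -0.38. None of these is a called change.

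By the RefSeq gene table of GRCm38.p6, 74 of the 78 genes lie within the span of another gene. Such a gene is called a host here by its span alone, and its strand and introns were not checked. Of the H/ACA genes, 19 lay within coding genes, 6 within non-coding genes and 1 within both kinds. Of the C/D genes, 31 lay within coding genes, 9 within non-coding genes, 4 within both and 3 in none. In all, 17 members lay in genes of ribosomal proteins or translation factors, and their median mean level was 0.29, against 0.32 for the other hosted members. A host with 1 symbol was measured for 58 members that had a single host. Over these, which share 44 hosts and all arrays, the Spearman correlation of mean levels was 0.165. The member and its host differed in the same direction in 36 of 58 (62.1%) from d0 to d2 in WT, 34 (58.6%) in DKO, 28 (48.3%) between genotypes at d0 and 26 (44.8%) at d2.

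Members of 1 host could read alike or not. In Ncl, which itself read 1.31 in WT d0, 0.61 in WT d2, 0.55 in DKO d0 and 1.30 in DKO d2, Snord82 was level while Snora75 was lower at d2 in each genotype. Snhg12 read 0.45 in WT d0, 1.08 in WT d2, 0.50 in DKO d0 and 0.51 in DKO d2. Of its 4 snoRNAs, Snora16a, Snora44, Snora61 and Snord99, all were higher in WT d2 than in WT d0, by 0.19 to 0.44, as was the host. Their means were 0.11, 0.32, 0.47 and 1.84 in that order, so only Snord99 was bright. In DKO cells only Snord99 of the 4 differed by more than 0.2 between days, at 0.51 higher in d2. Nop58 was higher in WT d2 than in WT d0 by 0.08, while Snord11 and Snord70 within it were lower, at -0.55 and -0.50.

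**Figure D5:**
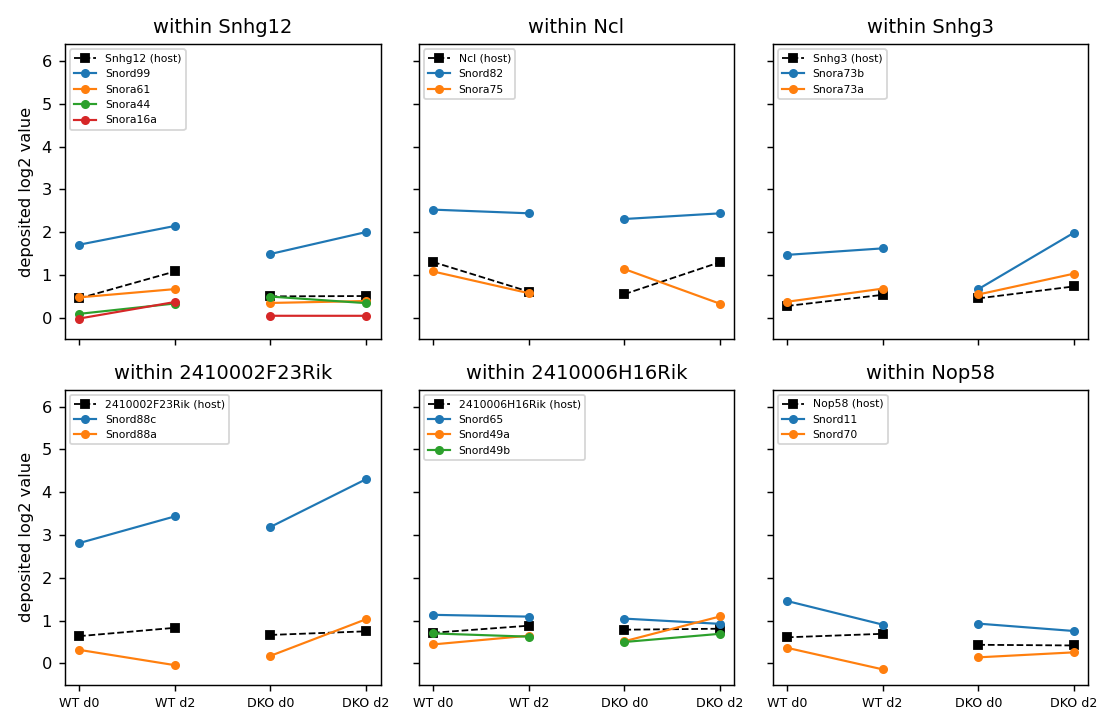
Deposited log2 value (vertical axis) on each array (horizontal axis) for snoRNA genes that share a host (coloured circles) and for the host (black squares, dashed), in 6 hosts; lines join d0 and d2 of 1 genotype. In Snhg12 all 4 snoRNAs and the host are higher in WT d2 than in WT d0; in Ncl, Snord82 stays between 2.31 and 2.53 while Snora75 lies between 0.33 and 1.14.

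The proteins that bind these RNAs showed no 2-fold difference in the 4 comparisons. Of the H/ACA proteins, all 4 were measured: Dkc1, the pseudouridine synthase, had values of 0.34 in WT d0, 0.17 in WT d2, 0.23 in DKO d0 and 0.24 in DKO d2, and Nhp2, Nop10 and Gar1 had means of 0.999, 0.75 and 0.82. Of 4 C/D proteins 3 were measured, Nop56, Nop58 and Snu13, with means from 0.35 to 0.54. Of 9 assembly factors all 9 were measured, and of 6 Cajal body, cap and transport proteins 5. In limma 0 members of these lists passed an adjusted p of 0.05 (lowest adjusted p 0.923), and at an unadjusted p under 0.05 there was 1, the coilin gene Coil for the d2 term. Of listed host genes, 14 of 16 non-coding and 28 of 32 coding ones were measured. Snhg9 was the only 2-fold difference of the first kind, at -1.10 between genotypes at d0, and Eif4a2 the only one of the second, lower in DKO d2 at 3.04, where it read 7.13 in WT d0, 6.74 in WT d2 and 7.14 in DKO d0.

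A pair of H/ACA genes overlap annotated microRNA hairpins, and their sequences are printed to show that overlap. Capitals mark the bases within the snoRNA span in RefSeq (GRCm38.p6), read on the hairpin's strand and 5′ to 3′. The whole Snora19 span lies inside the Mir3084-2 hairpin, and part of that of Snora34 lies in Mir1291.
Mir3084-2 hairpin: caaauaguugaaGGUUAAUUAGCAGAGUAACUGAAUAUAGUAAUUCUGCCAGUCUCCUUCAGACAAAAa
Mir1291 hairpin: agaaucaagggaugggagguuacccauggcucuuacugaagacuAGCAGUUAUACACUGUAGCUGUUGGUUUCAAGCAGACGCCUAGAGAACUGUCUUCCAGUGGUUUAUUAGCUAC
H/ACA RNAs are named for the letters ACA near their 3′ end, and in the first sequence ACA stands 3 bases before the end of the marked span. Counted from the hairpin's own end instead, 16 of 1005 hairpins of the table (1.59%) have ACA 3 bases before it. That share is taken at hairpin ends and not at ends of snoRNA spans, so it is no background for the motif in Snora19. Snora19 read 0.01 in WT d0, 0.19 in WT d2, 0.06 in DKO d0 and 0.11 in DKO d2, on each of a pair of probe sets with identical values. Snora34 read -0.05, 0.15, 0.31 and 0.10 in that order, so Snora19 was below the 40th percentile on all 4 arrays and Snora34 on 3.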

How the data were processed

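The authors normalized and summarized the probes with RMA, of unstated version per the submitters' processing notes, and deposited the values, taken here as log2. The table names no log base, and values mostly between 0 and 1 are unusual for RMA. No further scaling was applied. Of 41345 probe sets, 23521 had 1 symbol and 1814 several; 23328 matched RefSeq (GRCm38.p6), used for names and neighbouring genes only, since no source used here names the array's build. Each gene took its probe set with the highest mean. Single arrays were compared by differences of log2 values. For shared terms limma 3.58.1 ran in R 4.3.3 (genotype and day as additive terms, trend, Benjamini-Hochberg over 20015 genes whose highest value reached the 40th percentile, 0.30), checked on simulated data; a true interaction adds to its error. Python 3.11.15, numpy 2.4.6, pandas 2.3.3 and matplotlib 3.10.9 were used. With 1 array a group, the number of arrays limits the precision. The members and lists were chosen with earlier results of these data known. Members are named where they are the 8 H/ACA or 8 C/D genes of highest mean, differ 2-fold, belong to a list, or have the 4 lowest limma p-values of a term; Snora19, Snora34, Snora16a, Snora44, Snora61, Snord55, Snord65 and Snord11 were named after their values were seen. Of the lists by host, Gas5 introns had 1 measured member of 10 (Snord47, mean 0.15), Snhg1 introns 1 of 8 (Snord22, mean 0.64) and Rpl13a introns 2 of 5 (Snord35a, mean 0.92, and Snord35b, which RefSeq places outside Rpl13a, mean 0.78). Alternatives were 3 further scalings, 2 filters, averaging the probe sets of a gene, a threshold of 1.5-fold, other moderation and an adjusted p under 0.1.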

Additional observations from a re-analysis of the deposited data

Results flagged for a closer look

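Snord8 differed in opposite directions between d2 and d0 in the genotypes, by at least 0.5 in each. It was higher in WT d2 than in WT d0 by 0.69 and lower in DKO d2 than in DKO d0, at -1.51, so that the DKO difference minus the WT difference was -2.20. The DKO difference was smaller after other scalings, at -1.07 with quantile normalization and -1.30 with cyclic loess. The difference between the genotypes was not tested, since each group is 1 array.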

How the results depend on the processing

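At a 1.5-fold threshold the members past it numbered 4 for WT d2 against d0, 14 for DKO d2 against d0, 7 for DKO against WT at d0 and 11 at d2, against 0, 5, 0 and 5 at 2-fold. With array medians set equal, 1 member, against 0, passed 2-fold between genotypes at d0. The share of all genes was not counted at 1.5-fold or with medians set equal. These counts of members therefore cannot be set against all genes. With only members of mean above 1, chosen after seeing the data, the H/ACA minus C/D median difference was 0.34 for the DKO d2 difference (-0.039 over all members), -0.13 between genotypes at d0 (-0.027) and 0.26 at d2 (-0.14). In WT it was 0.15, and 0.13 to 0.19 over the alternatives. The H/ACA minus C/D median level was 0.010, -0.093 for members past the 40th percentile filter and -0.36 for those of mean above 1. The cause was not tested. For 10 named differences, each recomputed under 4 alternatives (the other scalings and the mean of probe sets), 0 of 40 values reversed and 8 moved by over 0.1. Snora33 between genotypes at d2 was -0.31 with the mean of its probe sets. Snord8 there was -0.97 with quantile normalization and -1.12 with cyclic loess, and between DKO d2 and d0 it was -1.07 and -1.30. With quantile normalization, Snord66 was 1.34 between DKO d2 and d0 and 2.14 between genotypes at d2. Snord88c was then 1.41 between DKO d2 and d0. In limma 0 members were called under each alternative, with a lowest member adjusted p of 0.379. Calls were also few over all genes. With array medians set equal, 10 of 20015 genes were called for the d2 term and 4 for the genotype term. With the filter at the 60th percentile, 12 and 6 of 15341 genes were called. Each other alternative called 0 or 1 gene per term. With so few calls over all genes, the 0 called members do not set the members apart. No paired analysis was possible because the labels give no replicate numbers and each group is 1 array; leaving out a replicate was not possible either. Leaving out imprinted C/D genes was not run, since 0 members belong to those clusters.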
